A study of Homo sapiens with 40 samples.

Results

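The genes described here are the kinases of the MAP kinase cascades, taken as every gene of the deposited table whose symbol is MAPK, MAP2K, MAP3K or MAP4K followed by a number. The rule used names only and found 39 of the 15788 genes in the table. Of these, 36 reached a mean of at least 1 over all libraries and entered the tests, which covered 12591 genes, and 3 did not (MAP2K6, MAPK10 and MAPK13). The study measured messenger RNA in BEAS-2B, an immortalised line from human bronchial epithelium, in 40 libraries that form 10 groups of 4. All cells were confluent and had spent the night without serum before a treatment of 2 h. The groups were vehicle, RNO at 1 µM, ONO-AE1-329 at 0.1 nM, at 1 nM and at 1 µM, vilanterol at 100 nM, and each of these 4 agonist treatments together with RNO at 1 µM. RNO is roflumilast N-oxide, an inhibitor of the PDE4 enzymes that degrade cAMP. ONO-AE1-329, called ONO below, activates EP4, a receptor for prostaglandin E2, and vilanterol is an agonist of the β2-adrenoceptor. Both receptors couple to Gs and raise cAMP. The labels do not state whether replicates were separate cultures, and the spread on which each p-value rests may therefore be technical.

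A MAP kinase cascade is a chain of protein kinases that passes a signal from the cell surface or from stress sensors to the nucleus. A MAP4K activates a MAP3K, the MAP3K phosphorylates a MAP2K, and the MAP2K phosphorylates the MAPK at the end of the chain. The end kinases are the classical ERK kinases, which respond mainly to growth factors, ERK5, and the JNK and p38 kinases, which respond to stress and inflammatory cytokines. In airway epithelium these chains take part in cytokine release and repair. The kinases are mainly controlled by phosphorylation, which RNA levels do not show.

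BEAS-2B was checked against cell type markers. The simple epithelial keratins KRT8 and KRT18 were abundant, with means over all libraries of 359 and 292 in normalised TPM. KRT7 was lower at 14.5, and EPCAM (0.265) and CDH1 (0.745), which mark epithelial junctions, were near 0. Of the 8 epithelial markers listed, 5 were in the deposited table, which did not hold KRT5, KRT19 and TP63. Of the mesenchymal genes, VIM was at 1306, COL1A1 at 495 and PDGFRB at 55.7, while COL1A2 was at 9.44. LUM and DCN were not in the table. Of the 5 leukocyte markers listed, 2 were in the table, CD68 at 12.8 and LYZ at 0.417. The endothelial markers PECAM1 (0.117) and VWF (0.324) were near 0. The line therefore carried RNA of both epithelial and mesenchymal markers. Of the 3 tested epithelial markers (KRT7, KRT8 and KRT18), 2 were lower than in vehicle with ONO at 1 nM, with vilanterol and with RNO added to ONO at 1 µM or to vilanterol, and 1 was lower with ONO at 1 µM and with ONO at 1 nM and RNO. KRT18 was at 0.752-fold with vilanterol (adjusted p = 0.00021) and KRT8 at 0.792-fold (adjusted p = 0.035), while the 4 mesenchymal markers gave no call against vehicle. The part of this in the results was not tested. One library stood apart: vehicle replicate 3 had the highest total of all libraries, 1091500 against 956890 for the lowest, and the lowest median value, 8.47. In it 28 of the 36 tested kinases lay below the vehicle mean. Since every comparison with vehicle uses that library, values without it are given wherever the call of a kinase was lost. Calls of genes outside the family, such as the keratins, were not checked without it.

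Values are normalised TPM, transcript abundance per length and per sequenced amount after the authors' adjustment between samples, so levels can be compared between genes. The most abundant kinase was MAP2K2 (MEK2, which activates the classical ERK kinases), with a mean of 118 ± 6.06 (SD, n = 40 libraries). It was followed by MAP3K20 (ZAK, a sensor of stalled ribosomes) at 74.4 ± 3.44 and by MAP2K3 (MKK3, which activates p38) at 68.0 ± 6.15. At the end of the chains, ERK1 (MAPK3) had 46.6 ± 1.97, the JNK kinases MAPK9 and MAPK8 had 29.2 ± 1.29 and 10.8 ± 0.609, and p38α (MAPK14) had 24.4 ± 1.10. MAPK10 (JNK3, known from neurons) and MAPK13 (p38δ) were low, at 0.140 and 0.516, while MAPK12, another p38 kinase, had 13.2. MAP2K6, the other main p38 activator, had 0.908, so MAP2K3 RNA was far above that of MAP2K6 in every library (lowest MAP2K3 value 55.6, highest MAP2K6 value 1.33). MAP3K8 was low, with 3.12 ± 0.544 (SD, n = 4) in vehicle cells.

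**Figure D1:**
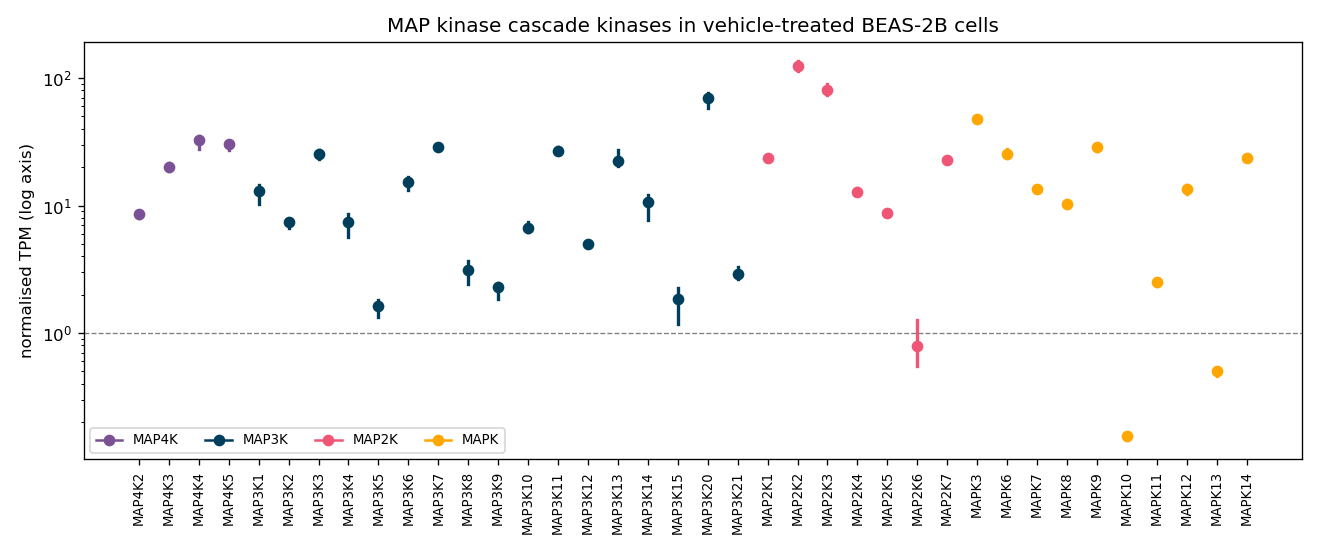
Normalised TPM (log axis) of 38 kinases in the 4 vehicle libraries: points are means, lines run from the lowest to the highest library, colours give the tier of the cascade, and the dashed line is the limit of 1 used for testing. MAP2K2 is highest at a mean of 123, and MAP2K6, MAPK13 and MAPK10 lie below the limit.

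Most of the kinases varied little between the groups. The ratio of the highest to the lowest of the 10 group means had a median of 1.12 over the 36 tested kinases, beside 1.14 over all genes tested. MAP3K8 had the widest ratio, 2.52, and no other kinase exceeded 1.34. A gene is called changed below when its adjusted p is under 0.05 in limma's test on log2(value + 1), which understates the change of low genes.

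Against vehicle, 12 kinases were called in at least 1 of the 9 comparisons. RNO alone called 1 kinase, which was lower, where 0.238% of all tested genes were called (0.135% lower). ONO at 0.1 nM called 0 kinases (3 at an unadjusted p under 0.05; limma), where 0% of all genes were called. ONO at 1 nM called 1, lower, beside 1.01% of all genes (0.357% lower). ONO at 1 µM called 3, of which 2 were higher and 1 lower, beside 7.21% of all genes (4.19% higher, 3.02% lower). Vilanterol called 9, of which 4 were higher and 5 lower, which is 25% of the kinases beside 17.7% of all genes (9.69% higher, 7.97% lower). With RNO added, ONO at 0.1 nM again called 0 (7 at an unadjusted p under 0.05), beside 1.12% of all genes. ONO at 1 nM with RNO called 3, of which 2 were higher and 1 lower, beside 3.45% of all genes (2.18% higher, 1.27% lower). ONO at 1 µM with RNO called 8, of which 4 were higher and 4 lower, beside 15.8% of all genes (8.92% higher, 6.86% lower). Vilanterol with RNO called 10, of which 6 were higher and 4 lower, beside 18.4% of all genes (10% higher, 8.44% lower). In the groups with the most calls the kinases thus changed in both directions, with shares of the same order as the whole table. All 9 comparisons use the same vehicle libraries. The counts depend on the fit, and libraries with the same replicate number deviated together. With the replicate number added, they were 3 for RNO, 1, 5 and 7 for the rising ONO doses and 14 for vilanterol. For these agonists with RNO they were 3, 6, 18 and 15. The share of all genes called in that fit is not given here. When only the compared groups were fitted, 9 of the 38 calls over all comparisons held: 4 of MAP3K8, 3 of MAP3K2, that of MAP2K3 with ONO at 1 µM and that of MAP3K1 between ONO doses. With libraries rescaled to equal totals, 24 of the 38 held. The lost calls were among those of MAP2K3, MAP2K7, MAP3K1, MAP3K2, MAP3K4, MAP3K7, MAP3K14, MAPK3 and MAPK7.

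**Figure D2:**
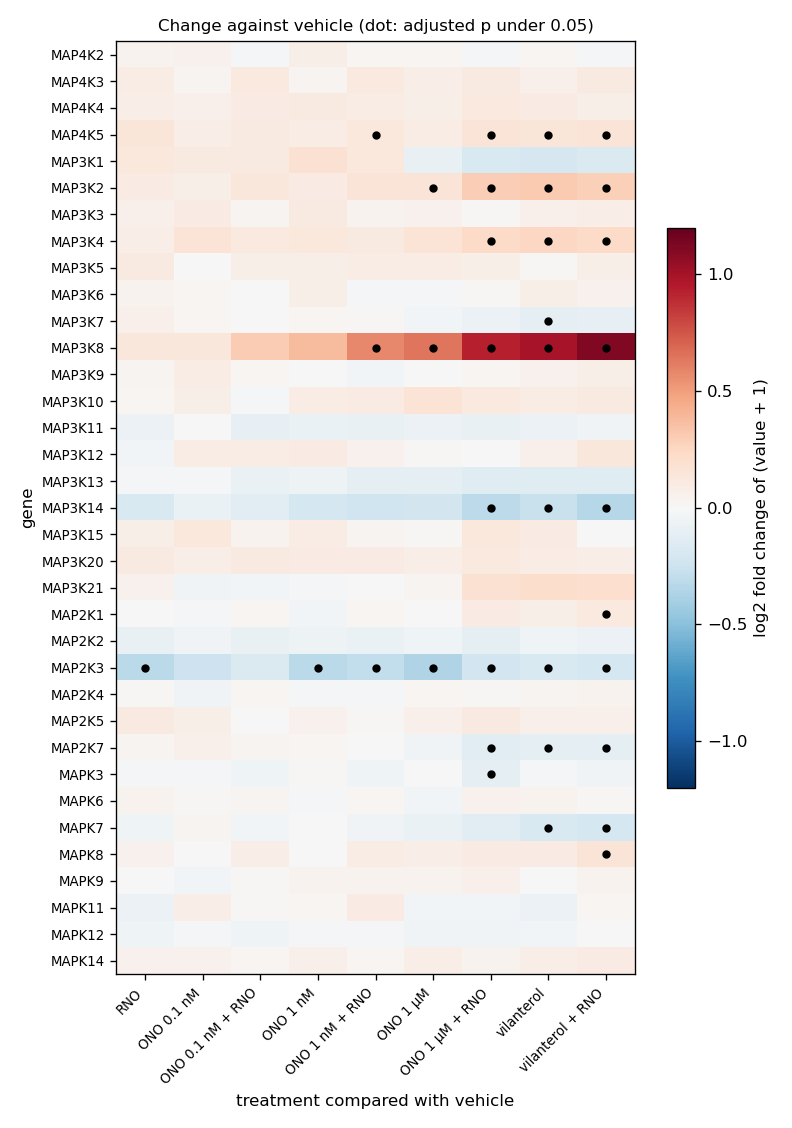
Log2 fold change of (value + 1) against vehicle for 35 tested kinases (rows, by tier) in the 9 treatments (columns); red is higher, blue is lower, and a dot marks an adjusted p under 0.05. MAP3K8 reaches 1.11 with vilanterol and RNO, MAP2K3 is blue in all columns and has 7 dots, and most rows stay pale.

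Among the MAP3 kinases, MAP3K8 (TPL2, also COT) rose the most. This kinase activates MEK1 and MEK2, and through them ERK, downstream of inflammatory receptors. Replicates 1 to 4 of vehicle gave 2.41, 2.99, 3.65 and 3.42, and RNO alone gave 2.66, 3.52, 3.47 and 4.55. ONO gave 2.65, 3.59, 3.57 and 4.40 at 0.1 nM, 3.79, 4.56, 4.56 and 4.42 at 1 nM, and 4.31, 4.92, 6.27 and 6.29 at 1 µM. Vilanterol gave 5.65, 7.06, 7.97 and 8.01. RNO alone and the lowest ONO dose overlapped with vehicle, while every library at the higher ONO doses and with vilanterol lay above all vehicle libraries. With RNO added the MAP3K8 values were 3.97, 3.80, 4.14 and 4.31 for ONO at 0.1 nM, 4.14, 5.11, 5.44 and 5.84 at 1 nM, and 5.32, 7.13, 7.37 and 7.65 at 1 µM, and 6.62, 7.74, 8.07 and 9.03 for vilanterol. All of these lay above vehicle as well.

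The rise of MAP3K8 passed the test with ONO at 1 µM (1.75-fold, log2 difference 0.64 ± 0.13 SE, adjusted p = 0.00073) and with vilanterol (2.30-fold, 0.99, adjusted p = 3.1e-07). It also passed with RNO and ONO at 1 nM (1.64-fold, adjusted p = 0.0051), with RNO and ONO at 1 µM (2.20-fold, adjusted p = 1.1e-06) and with RNO and vilanterol (2.52-fold, adjusted p = 2.8e-08). These 5 calls held when each library of the groups compared was left out in turn, and the call with RNO and ONO at 1 nM was lost when only those groups were fitted (adjusted p = 0.054). ONO at 1 nM alone (1.39-fold, adjusted p = 0.19) and ONO at 0.1 nM with RNO (1.30-fold, adjusted p = 0.36) did not pass, although neither group overlapped with vehicle. Groups accounted for 83.5% of the variance of MAP3K8 over the 40 libraries, against a median of 30.7% over the tested kinases and 26% over all tested genes. The share was also high for MAP2K7 (79.6%), MAP3K2 (77.5%) and MAP3K1 (70.8%).

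**Figure D3:**
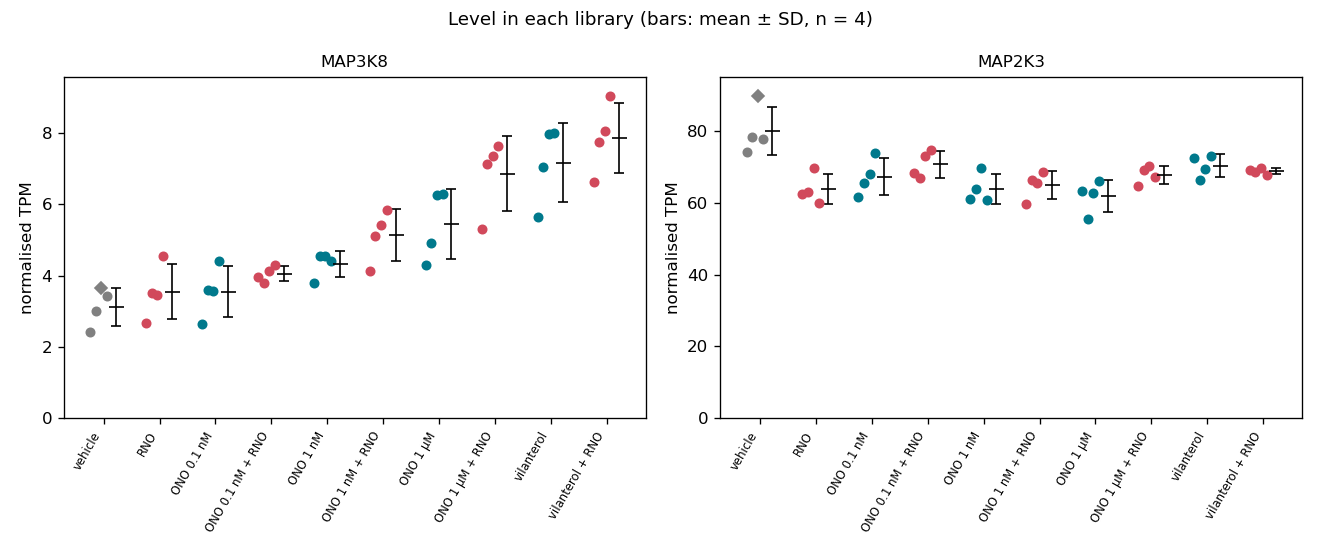
Normalised TPM of MAP3K8 (left) and MAP2K3 (right) in each library by treatment; grey is vehicle (the diamond is replicate 3), red is any treatment with RNO, blue-green is an agonist alone, and bars are mean ± SD (n = 4). MAP3K8 climbs from a mean of 3.12 in vehicle to 7.87 with vilanterol and RNO, while the MAP2K3 means of all treated groups, 62.0 to 70.8, lie below the vehicle mean of 80.1.

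Since the agonists act through cAMP, the annotated start of each kinase was searched for the cAMP response element. The letters TGACGTCA (full element) and TGACG (short site, contained in the full element) were searched on both strands of RefSeq promoter windows of 300 bases (GRCh38.p14), which run from 250 bases before the start to 50 bases after it. The windows matched 36 of the 39 kinases. MAP3K1 and MAP3K15 were among those with no entry. The full element was in windows of 2 of the 36 kinases, and in 2.25% of all 27305 genes with a window (1.85% of all 35116 windows). The 2 kinases were MAP3K13, which was not called against vehicle, and MAPK10, which was too low to test. The short site was in windows of 15 of the 36 kinases, and in 28.4% of all 27305 genes with a window. The stretches before the start are given for 3 kinases, which are the kinase that rose the most, the kinase called most often, and MAP3K13 as the only tested kinase with a full element. Capitals mark matches, 5′ to 3′ on the gene's strand.
MAP3K8 (first window, chr10:30433771-30434020, plus strand): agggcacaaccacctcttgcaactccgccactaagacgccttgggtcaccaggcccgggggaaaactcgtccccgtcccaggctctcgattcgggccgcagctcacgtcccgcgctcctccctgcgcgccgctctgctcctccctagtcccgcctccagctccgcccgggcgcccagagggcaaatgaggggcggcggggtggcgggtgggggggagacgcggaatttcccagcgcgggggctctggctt
MAP2K3 (second window, chr17:21287786-21288035, plus strand): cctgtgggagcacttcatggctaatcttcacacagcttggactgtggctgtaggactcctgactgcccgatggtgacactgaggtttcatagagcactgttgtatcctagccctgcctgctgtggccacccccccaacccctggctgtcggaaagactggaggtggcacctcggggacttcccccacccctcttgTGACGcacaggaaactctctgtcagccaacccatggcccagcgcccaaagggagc
MAP3K13 (first window, chr3:185282711-185282960, plus strand): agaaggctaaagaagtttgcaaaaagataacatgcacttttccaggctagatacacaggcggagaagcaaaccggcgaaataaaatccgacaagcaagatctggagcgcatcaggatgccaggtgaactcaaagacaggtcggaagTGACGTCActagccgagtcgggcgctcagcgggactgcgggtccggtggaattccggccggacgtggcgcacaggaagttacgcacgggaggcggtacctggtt
MAP3K8 had neither motif in any of its 3 windows. MAP2K3, which fell, had a short site in its second window, which is the window shown, 55 bases before the start annotated there. Its first window, which is not shown, held neither motif. MAP3K13 (LZK, an activator of JNK) held the full element 104 bases before the start, and its level was 22.4 ± 3.23 (SD, n = 4) in vehicle and 20.01 ± 1.48 with vilanterol (adjusted p = 0.085). The vehicle mean was raised by 1 library at 27.2, the highest of all 40. The medians were 20.9 in vehicle and 20.3 with vilanterol, and the 2 groups overlapped. The matches describe letters and not binding.

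MAP3K2 (MEKK2, which feeds the ERK5 and JNK chains) also rose. Its vehicle libraries, replicates 1 to 4, gave 7.83, 7.54, 6.71 and 7.85, and vilanterol gave 9.02, 10.2, 9.90 and 9.02. ONO at 1 µM gave 8.45, 8.17, 8.70 and 8.28, and with RNO 9.17, 9.66, 9.47 and 9.38. Vilanterol with RNO gave 8.89, 9.92, 9.43 and 9.03. None of these 4 groups overlapped with vehicle, where vehicle replicate 3 was lowest. RNO with ONO at 0.1 nM (mean 8.30) or 1 nM (mean 8.44) also lay above all vehicle libraries, but neither was called. MAP3K2 was 1.27-fold higher with vilanterol (adjusted p = 3.5e-06), 1.26-fold with ONO at 1 µM and RNO (adjusted p = 8.5e-06) and 1.25-fold with vilanterol and RNO (adjusted p = 1.7e-05). The smaller difference with ONO at 1 µM alone (1.12-fold, adjusted p = 0.041) was lost in 6 of 8 fits that left out 1 library (vehicle replicates 2 or 3, or any ONO replicate), with adjusted p = 0.24 without vehicle replicate 3.

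MAP3K14 (NIK, which activates the non-canonical NF-κB pathway) fell. Vehicle gave 11.6, 12.2, 7.74 and 11.2, so replicate 3 lay far below the others. Vilanterol gave 8.21, 9.48, 7.75 and 9.10, with a mean of 8.64 ± 0.792 (SD, n = 4; adjusted p = 0.043). The combination of ONO at 1 µM and RNO gave 7.19, 9.28, 7.87 and 8.85 (mean 8.29 ± 0.944, adjusted p = 0.015). Vilanterol with RNO gave 7.40, 8.46, 8.44 and 8.12 (mean 8.11 ± 0.495, adjusted p = 0.0066). Each group overlapped with vehicle through vehicle replicate 3, and all lay below the other vehicle libraries. The vilanterol call of MAP3K14 was lost in 5 of 8 fits without 1 library (vehicle replicates 1, 2 or 4 and vilanterol replicates 1 or 3, adjusted p up to 0.14), and that of ONO at 1 µM with RNO in 2 of 8 (vehicle replicate 2, replicate 1 of the combination, adjusted p up to 0.072). The antisense gene MAP3K14-AS1, which overlaps its exons, had a vehicle mean of 1.16 and was not called.

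MAP3K4 (MEKK4, a kinase that GADD45 proteins bind and activate) was called higher in the same 3 treatments. Vehicle gave 7.67, 8.52, 5.70 and 7.64, and vilanterol gave 7.97, 9.42, 8.92 and 9.19 (mean 8.88, adjusted p = 0.031). ONO at 1 µM with RNO gave 7.58, 9.18, 9.21 and 9.14 (mean 8.78, adjusted p = 0.049), and vilanterol with RNO gave 7.67, 9.67, 8.97 and 8.69 (mean 8.75, adjusted p = 0.049). In each treatment replicate 1 was lowest and lay inside the vehicle range. Without vehicle replicate 3 the adjusted p of MAP3K4 was 0.24, 0.34 and 0.33, so these 3 calls rest on that library. They were also lost without replicate 2, 3 or 4 of the treated group, and both combinations lost theirs without vehicle replicate 4 (adjusted p from 0.052 to 0.18 over these fits).

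MAP3K7 (TAK1, which relays TGF-β and interleukin-1 signals) was lower with vilanterol, at 26.4 ± 1.29 against 28.7 ± 1.02 in vehicle (SD, n = 4; adjusted p = 0.037), with overlap between the groups. This was lost without vehicle replicate 2 or 3 or vilanterol replicate 1, 2 or 4, with adjusted p = 0.14 without vehicle replicate 3. MAP3K1 (MEKK1, an activator of JNK) was not called against vehicle (12.9 ± 1.83). It differed between the ONO doses: 1 nM gave 14.2, 14.4, 14.7 and 15.7, and 1 µM gave 11.5, 12.5, 11.5 and 12.5, without overlap (0.815-fold, adjusted p = 0.033). MAP3K1 was the 1 kinase called in that comparison, where 2.11% of all genes were called (0.437% lower), and its call was lost in 5 of 8 fits without 1 library (ONO 1 nM replicates 2, 3 or 4 and ONO 1 µM replicates 1 or 3, adjusted p up to 0.14).

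At the top of the chains, MAP4K5 (a kinase of the germinal centre kinase family that acts upstream of JNK) was slightly higher. Vehicle gave 30.5, 31.2, 27.3 and 31.9, and vilanterol gave 33.7, 33.7, 34.2 and 32.4, all above vehicle (1.11-fold, adjusted p = 0.0018). With RNO, MAP4K5 had 34.2, 33.2, 33.8 and 33.9 with ONO at 1 µM (adjusted p = 0.00084), 32.6, 34.4, 33.8 and 34.1 with vilanterol (adjusted p = 0.00082) and 33.5, 33.1, 32.4 and 33.4 with ONO at 1 nM (adjusted p = 0.022). All of these lay above vehicle too. So did RNO alone (mean 33.5, lowest library 32.4) and RNO with ONO at 0.1 nM (mean 32.6, lowest 31.93), although neither was called. The highest vehicle library was at 31.92. When only the compared groups were fitted, no MAP4K5 call held (adjusted p from 0.16 to 0.63). The call with ONO at 1 nM and RNO was lost without vehicle replicate 3 (adjusted p = 0.15), and without replicate 1, 2 or 4 of that combination. The other tested MAP4 kinases, MAP4K2, MAP4K3 and MAP4K4, were not called in any comparison.

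Among the MAP2 kinases, MAP2K3 was called in 7 of the 9 comparisons with vehicle, each time lower. Vehicle gave 74.2, 78.4, 89.7 and 77.9 in replicates 1 to 4, and RNO alone 62.5, 63.0, 69.8 and 60.1. ONO gave 61.6, 65.6, 68.1 and 74.0 at 0.1 nM, 61.1, 63.8, 69.8 and 60.9 at 1 nM, and 63.5, 55.6, 62.8 and 66.1 at 1 µM. Vilanterol gave 72.7, 66.3, 69.5 and 73.3. Vehicle replicate 3 was the highest of all 40 libraries for this gene, and the remaining vehicle libraries still lay above every treated library, with 1 exception: replicate 4 of ONO at 0.1 nM with RNO (74.8) was above vehicle replicate 1. With RNO, MAP2K3 had 68.2, 67.0, 73.2 and 74.8 with ONO at 0.1 nM, 59.6, 66.5, 65.5 and 68.6 at 1 nM, 64.7, 69.2, 70.3 and 67.2 at 1 µM, and 69.1, 68.6, 69.7 and 67.7 with vilanterol.

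The fall of MAP2K3 was largest with ONO at 1 µM (0.775-fold, log2 difference -0.36 ± 0.059 SE, adjusted p = 3.8e-05). RNO alone gave 0.797-fold (adjusted p = 0.0071), ONO at 1 nM gave a log2 difference of -0.32 (adjusted p = 0.0017), and vilanterol -0.18 (adjusted p = 0.030). With RNO added, the log2 differences were -0.29 for ONO at 1 nM (adjusted p = 0.0014), -0.23 for ONO at 1 µM (adjusted p = 0.0050) and -0.21 for vilanterol (adjusted p = 0.0093). ONO at 0.1 nM did not pass, alone (adjusted p = 0.80) or with RNO (adjusted p = 0.21). Its means were still below the vehicle mean of 80.1, at 67.3 alone and 70.8 with RNO. Vilanterol, which was called, had a mean of 70.4. Every library of ONO at 0.1 nM alone lay below all vehicle libraries, in a comparison where 0% of all genes were called. Without vehicle replicate 3 the calls of MAP2K3 held for ONO at 1 nM (adjusted p = 0.018), ONO at 1 µM (0.00052) and both with RNO (0.016 and 0.045), and were lost for RNO alone (0.064), vilanterol (0.19) and vilanterol with RNO (0.074). The RNO call was also lost without RNO replicate 4 (0.064), and the vilanterol call without vilanterol replicate 2 (0.12) or 3 (0.069). When only the compared groups were fitted, the call of MAP2K3 with ONO at 1 µM held (0.026) and the other 6 were lost, with adjusted p of 0.48 for RNO, 0.17 for ONO at 1 nM, 0.16 for vilanterol, and 0.10, 0.064 and 0.069 for ONO at 1 nM, ONO at 1 µM and vilanterol with RNO.

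RNO alone (63.8) and ONO at 1 µM alone (62.0) each lowered MAP2K3, and their combination (67.8) lay no lower than either. The interaction, the difference between the joint effect and the sum of the single log2 differences, was 0.45 ± 0.084 (SE) on the log2 scale for ONO at 1 µM (adjusted p = 0.015) and 0.39 for ONO at 0.1 nM (adjusted p = 0.038). MAP2K3 was the 1 kinase called in each, where 0.0635% and 0.135% of all genes were called (0.0477% and 0.127% with a positive interaction). For ONO at 1 nM (0.35, adjusted p = 0.18) and vilanterol (0.29, adjusted p = 0.59) the interaction did not pass; 0 kinases were called in either (3 in each at an unadjusted p under 0.05; limma), beside 0% and 0.00794% of all genes. The interaction at 1 µM was lost without RNO replicate 4 (adjusted p = 0.059) or ONO 1 µM replicate 2 (0.068), and that at 0.1 nM was lost in 11 of 16 fits without 1 library, all but those without vehicle replicate 1, RNO replicate 3, ONO replicate 4 or replicate 1 or 2 of the combination (adjusted p up to 0.13, and 0.082 without vehicle replicate 3). Neither interaction held when only the compared groups were fitted (adjusted p = 0.19 and 0.26).

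MAP2K7 (MKK7, which activates JNK) was lower in 3 groups. Vehicle gave 22.3, 23.2, 22.4 and 22.8, and vilanterol gave 21.4, 21.7, 19.7 and 20.7, all below vehicle (0.921-fold, adjusted p = 0.0084). ONO at 1 µM with RNO gave 19.9, 20.3, 20.2 and 21.7 (0.905-fold, adjusted p = 0.0018), and vilanterol with RNO gave 21.1, 20.9, 19.9 and 21.5 (adjusted p = 0.0075), also below vehicle without overlap. The vilanterol call was lost without vilanterol replicate 3 (adjusted p = 0.063), and all 3 calls were lost when libraries were rescaled to equal totals or only the compared groups were fitted (adjusted p from 0.055 to 0.24). MAP2K1 (MEK1, the partner of MEK2) rose with vilanterol and RNO, from 23.4 ± 0.726 to 25.5 ± 0.919 (SD, n = 4; adjusted p = 0.017), and this was lost without vehicle replicate 4 (0.064) or without replicate 1 of the combination (0.077). MAP2K2, MAP2K4 and MAP2K5 were not called.

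**Figure D4:**
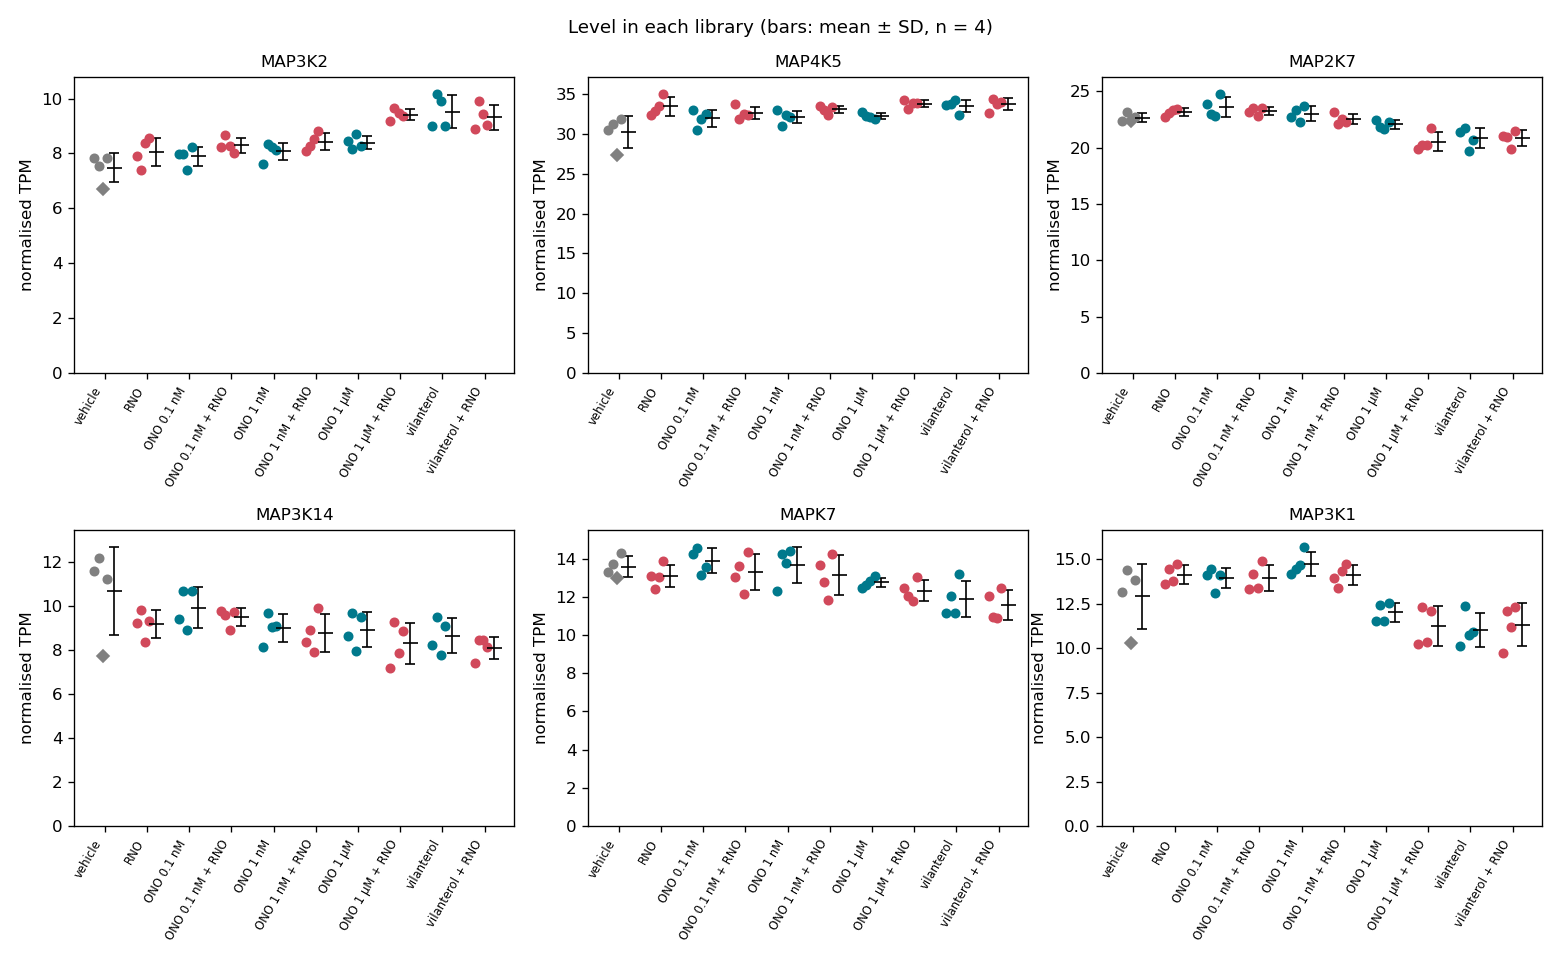
Normalised TPM of 6 further kinases in each library by treatment, with axes from 0; grey is vehicle (the diamond is replicate 3), red is any treatment with RNO, blue-green is an agonist alone, and bars are mean ± SD (n = 4). Vehicle replicate 3 is the lowest vehicle library for MAP3K2 (6.71), MAP4K5 (27.3), MAP3K14 (7.74) and MAP3K1 (10.3).

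Among the end kinases, MAPK7 (ERK5, activated by MAP2K5) fell. Vehicle gave 13.3, 13.7, 12.99 and 14.3, and vilanterol with RNO gave 12.0, 10.9, 10.9 and 12.4, all below vehicle (0.853-fold, adjusted p = 0.0058). Vilanterol alone gave 11.1, 12.0, 11.2 and 13.2 (adjusted p = 0.023), with replicate 4 inside the vehicle range, and this call was lost without vehicle replicate 4 or vilanterol replicates 1 or 3 (adjusted p up to 0.089). It was also lost with equal totals or with only the compared groups fitted (adjusted p up to 0.15). MAPK8 (JNK1) was higher with vilanterol and RNO, at 11.5 ± 0.406 against 10.2 ± 0.645 (SD, n = 4; adjusted p = 0.022), with overlap, and was lost without vehicle replicate 3 (0.11) or without replicate 3 of the combination (0.079). MAPK3 (ERK1) was lower with ONO at 1 µM and RNO, at 43.8 ± 1.33 against 47.7 ± 1.79 (adjusted p = 0.037), and was lost in 6 of 8 fits without 1 library (any of vehicle replicates 1 to 3 or combination replicates 1 to 3, adjusted p up to 0.13), with adjusted p = 0.059 without vehicle replicate 3. The p38 kinases MAPK11, MAPK12 and MAPK14, and also MAPK6 and MAPK9, were not called in any comparison. The MAPK14 mean moved from 23.5 in vehicle to 24.8 with vilanterol (adjusted p = 0.28).

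Adding RNO to an agonist called 0 kinases with ONO at 0.1 nM (1 at an unadjusted p under 0.05), 1 nM (0) or 1 µM (6) and with vilanterol (0; limma), where 0.723%, 0.238%, 0.604% and 0% of all genes were called. MAP3K8 was 1.26-fold higher with ONO at 1 µM and RNO than with that dose alone (adjusted p = 0.56), and the libraries of the pair overlapped. Between ONO at 1 µM and vilanterol, each a maximal concentration per the labels, 0 kinases were called (6 at an unadjusted p under 0.05; limma), beside 2.14% of all genes. These counts depend on the fit. With the replicate number added to it, RNO added to ONO at 1 µM called 2 kinases, and ONO at 1 µM against vilanterol called 5. MAP3K8 was 0.760-fold as high with ONO as with vilanterol (adjusted p = 0.22), MAP3K2 0.882-fold (adjusted p = 0.060) and MAP2K3 0.881-fold (adjusted p = 0.12).

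Lists of genes that act on these kinases, are activated by them or belong to the same tiers are given for comparison, each as counts against vehicle. With vilanterol, 17.7% of all tested genes were called, 9.69% higher and 7.97% lower. Of 16 tested genes of the RAS to RAF step (RAS, RAF, KSR and SOS genes with GRB2, SHC1, NF1, RASA1 and PEBP1), vilanterol called 1 higher and 0 lower (6.25%): KSR1, a scaffold of the RAF to ERK chain, rose from 1.90 ± 0.372 to 2.98 ± 0.229 (adjusted p = 3.3e-05). Of 11 kinases that MAP kinases activate, vilanterol called 2 higher and 1 lower (27.3%). MAPKAPK2, a p38 substrate that stabilises cytokine messages, rose from 55.4 ± 1.43 to 63.8 ± 1.75 (adjusted p = 2.2e-06), and MKNK2, which phosphorylates eIF4E, rose from 27.7 to 35.0 (adjusted p = 0.0022). Of 17 scaffold and adaptor genes, vilanterol called 2 higher and 4 lower (35.3%). GADD45A and GADD45B, stress proteins that activate MAP3K4, fell from 95.4 ± 3.33 to 56.3 ± 4.13 (adjusted p = 6.1e-07) and from 87.9 ± 7.99 to 64.8 ± 5.87 (adjusted p = 3.6e-05), and SH3RF1, a JNK scaffold, rose from 25.4 to 32.5 (adjusted p = 3.7e-06). Of 11 phosphatases of MAP kinases, vilanterol called 4 higher and 3 lower (63.6%): DUSP1 was 3.43-fold higher, DUSP6, which acts on ERK, was 0.349-fold as high, and PPM1D, which acts on p38, was 1.78-fold higher (adjusted p = 3.3e-18). Of 11 kinases of the same tiers under other symbols, vilanterol called 1 (9.09%), PBK, which was lower (0.878-fold, adjusted p = 0.0038).

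With ONO at 1 µM, where 7.21% of all genes were called, 1 of the 16 RAS to RAF genes was higher (KSR1, at 2.58), of the 11 activated kinases 1 was higher (MAPKAPK2, at 60.1), and of the 17 adaptors 2 were lower (GADD45A at 58.8 and GADD45B at 69.9). Of the 11 phosphatases 4 were higher and 2 lower. With RNO added to that dose (15.8% of all genes), 2 of 16 RAS to RAF genes were higher, 2 of 11 activated kinases higher and 1 lower, 2 of 17 adaptors higher and 3 lower, 4 of 11 phosphatases higher and 3 lower, and 1 of 11 kinases under other symbols lower. Vilanterol with RNO (18.4% of all genes) called 2 of 16 RAS to RAF genes higher, 2 of 11 activated kinases higher, 1 of 17 adaptors higher and 3 lower, 4 of 11 phosphatases higher and 3 lower, and 1 of 11 kinases under other symbols lower. In the remaining treatments the calls were among phosphatases, with 1 of 11 higher and 2 lower for ONO at 1 nM (1.01% of all genes), 3 higher and 2 lower with RNO added (3.45%), 1 higher and 1 lower for RNO alone (0.238%), and 2 higher and 2 lower for ONO at 0.1 nM with RNO (1.12%), except that ONO at 1 nM with RNO also called 2 of 17 adaptors lower.

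Some values may hold reads of other genes, since the sources used here do not say whether strand was used when reads were assigned. Exons of MAP3K14, MAPK7, MAP2K1 and MAP4K5 overlap on the other strand with MAP3K14-AS1, B9D1, SNAPC5 and ATL1, and none of these 4 genes was called against vehicle. MAPK7 also overlaps with MFAP4, which was too low to test (mean 0.270). MAP3K13 overlaps with TMEM41A, which was lower with ONO at 1 µM (0.870-fold, adjusted p = 0.031) and with that dose and RNO (0.880-fold, adjusted p = 0.028). MAP3K3, MAP3K12, MAP3K15 and MAPK10 overlap with other protein-coding genes, which were not tested for this. MAP2K7, MAP3K1 and MAP3K4 overlap on the other strand with non-coding genes that were not analysed here. MAP2K1, MAP2K4 and MAPK6 have processed pseudogenes by name, and MAPK12 shares bases with HDAC10 on the same strand. The depth of the libraries is unknown, so no counting error can be given for MAP3K5 (mean 1.72), MAP3K15 (1.95), MAP3K9 (2.34) and the other low kinases.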

How the data were processed

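Directional poly(A) RNA libraries of 40 samples were sequenced on a NextSeq 500 across a pair of sequencing kits, per the labels, which do not say which kit served which library. Per the submitters' processing notes, the builds were GRCh37 and hg19, and the tools were kallisto, sleuth and bcl2fastq 2.18.0.12. Versions of kallisto and sleuth were not found in these notes. The authors deposited 1 table of normalised TPM, a signal scaled for length and depth and adjusted between samples, with unequal column totals. TPM had been assumed, and the same test was used.

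Genes with a mean of at least 1 were tested with limma 3.58.1 (R 4.3.3) on log2(value + 1), with 1 mean per group, an intensity trend and 30 residual degrees of freedom. P-values were adjusted by the Benjamini-Hochberg method over all 12591 tested genes within each of 19 comparisons, with a threshold of 0.05. Fold changes are ratios of group means. Groups and replicate numbers came from the labels. The script was tested on simulated data. Library values of vehicle and of the called groups are given for kinases called in at least 3 of the 9 comparisons with vehicle, and also for MAPK7 and MAP3K1, which were chosen after their values were seen. The values of 1 kinase are not reported here. The members and lists were chosen with earlier results of these data known. The alternatives tried were a pseudocount of 0.1, no filter on low values, equal totals, only the compared groups, the replicate number as a block and leaving out each library.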

Additional observations from a re-analysis of the deposited data

Results flagged for a closer look

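In 130 groups of 4 libraries, over the 13 kinases called in any comparison, 3 held a library far from the other libraries of its group, and chance gives about 1 in 20 such groups. MAP3K4 was 7.583 in replicate 1 of ONO at 1 µM with RNO, against 9.144 to 9.206 in the others. MAPK3 was 48.26 in replicate 2 of ONO at 1 µM, against 47.11 to 47.27, and 43.06 in replicate 3 of vilanterol, against 47.81 to 48.55. The effect of RNO on MAP2K3 differed between cells with and without ONO, by a log2 difference of 0.394 at 0.1 nM (limma, adjusted p = 0.038) and 0.45 at 1 µM (adjusted p = 0.015). The call at 0.1 nM was lost in 11 of 16 fits without 1 library, and that at 1 µM in 2 of 16. Neither held when only the compared groups were fitted (limma, adjusted p = 0.26 and 0.19).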

How the results depend on the processing

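The 38 calls of single kinases kept their direction in every alternative run. All 38 held with a pseudocount of 0.1, 34 without a filter on low values, 24 with equal totals and 9 with only the compared groups fitted; 19 of the 35 calls against vehicle held without each library in turn. Fitting only the compared groups left 0 kinases for RNO, ONO 1 nM, ONO 1 nM with RNO and the interactions at 0.1 nM and 1 µM, and 2 for vilanterol, ONO 1 µM with RNO and vilanterol with RNO. Equal totals gave 4 for vilanterol, 4 for ONO 1 µM with RNO, 1 for ONO 1 µM against vilanterol, 0 for ONO 1 µM against 1 nM and 0 for the interaction at 0.1 nM. The cause was not tested. Leaving out 1 library gave 0 to 2 kinases for RNO, 1 to 2 for ONO 1 nM, 2 to 4 for ONO 1 µM and for ONO 1 nM with RNO, 4 to 9 for vilanterol, 0 to 1 for ONO 0.1 nM with RNO, 6 to 11 for ONO 1 µM with RNO, 8 to 12 for vilanterol with RNO, and 0 to 1 for ONO 1 µM against vilanterol, against 1 nM and for the interactions at 0.1 nM and 1 µM.

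Libraries with the same replicate number deviated together from their group means: the correlation was 0.0204 to 0.542 over 180 pairs, above 0.1 in 174, and each of the 40 libraries correlated best with its own number. Since the labels do not tie the numbers together and not every pair passed 0.1, the numbers are treated as shared numbers only. With the replicate block the 38 calls all held, and the counts were 3 for RNO, 1 for ONO 0.1 nM, 5 for ONO 1 nM, 7 for ONO 1 µM, 14 for vilanterol, 3, 6, 18 and 15 for these agonists with RNO, 2 for RNO added to ONO 1 µM, 5 for ONO 1 µM against vilanterol, 2 against ONO 1 nM, and 1 and 2 for the interactions at 1 nM and 1 µM. With the block and without vehicle replicate 3, a choice made after seeing the data, they were 3, 3 and 5 for RNO, ONO 1 nM and ONO 1 µM, and 2 for ONO 0.1 nM with RNO; 31 of the 35 calls against vehicle held, and those of MAP3K2 with ONO 1 µM, MAP3K4 with ONO 1 µM and RNO or with vilanterol and RNO, and MAPK8 with vilanterol and RNO were lost.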
